A study of Mus musculus with 36 samples.

Results

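The genes described here encode the steps by which a cell takes up glucose, splits it into pyruvate and lactate (glycolysis), diverts it into the pentose phosphate pathway or stores it as glycogen, together with the regulator Hif1a. They were listed by name, and each was represented by the probe set with the highest mean among those annotated to that gene alone. Of 37 listed genes, 32 had such a probe set among the 19938 genes measured, and 29 were bright enough to be tested, out of 12244 genes tested in all. A gene was tested where its log2 level exceeded 4.623, the median of the whole table, in at least 4 arrays. Gpi1, Pfkfb1, Gapdh, Eno1 and G6pdx had no probe set naming 1 gene and were not analysed here. Pfkm, Eno2 and Fbp1 were measured but too dim to test.

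Expression was measured on 36 Affymetrix whole-transcript arrays of sorted C57BL/6 mouse cells, in 9 groups of 4. The 4 donor populations came from wild-type mice that carried both congenic markers, CD45.1 and CD45.2. They were bone marrow (BM) monocytes and alveolar macrophages (AM) of adults aged 6 to 12 weeks, fetal liver (FL) monocytes of embryonic day E15.5 and yolk sac (YS) macrophages of E12.5. Part of each population was profiled at once, and part was given through the nose to newborn Csf2rb-/- mice, which lack the beta chain of the GM-CSF receptor. Donor-type descendants, sorted from bronchoalveolar lavage 6 weeks later, are named for the cells given (AM-derived for descendants of adult AM, and so on). Native AM of wild-type mice aged 6 weeks were the age-matched control. Fetal tissues were dissociated with collagenase, marrow was freed by crushing bones and AM were lavaged, so tissue preparation and origin of the precursors cannot be told apart. The BM, FL and YS transfer comparisons set such precursors against lavaged AM, so there preparation and transfer cannot be told apart. Derived AM came from Csf2rb-/- hosts and the other AM from wild-type mice, so between them host genotype and transfer cannot be told apart. The labels call the 4 arrays of a group biological replicates and do not say whether a replicate pools animals.

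Glycolysis yields pyruvate and a little ATP, and lactate dehydrogenase turns pyruvate into lactate, which leaves the cell through monocarboxylate transporters. Several steps have isoforms from separate genes that differ in regulation and in the tissues that use them. The pentose phosphate pathway supplies NADPH, which phagocytes use in the oxidative burst and against oxidative stress, and ribose for nucleotides. Alveolar macrophages live in an air space low in glucose and rich in surfactant lipid.

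Arrays correlated with the others of their group at a mean r of 0.963 to 0.982 across genes. All 8 alveolar macrophage markers lay above the table median in each of the 6 AM groups. So did all 6 measured classical monocyte markers in both monocyte groups and all 8 tissue macrophage markers in YS macrophages. Of the AM markers 3 to 4 also lay above it in each precursor, and 3 monocyte markers in YS macrophages and each AM group. Of the tissue macrophage markers 2 to 4 did so in AM groups and 2 to 3 in the monocytes. Markers of other cells differed between precursors. On a log2 scale of summed levels, erythroid markers reached 10.5 to 11.5 in YS macrophages against 6.6 to 7.0 elsewhere (4 of 6 measured markers above the table median there), and endoderm and hepatocyte markers 8.5 to 9.2 against 7.2 to 7.8 (4 of 7). Neutrophil and granule markers reached 11.6 to 13.5 in the monocytes against 7.7 to 7.9 in YS macrophages and 8.4 to 10.2 in AM. Cell cycle genes ranged from 12.6 to 13.7 in the monocytes and 13.3 to 13.5 in YS macrophages, against 11.9 to 12.4 in AM. All 14 cell cycle genes fell over the FL and YS transfers and 8 of them over the BM transfer. Of all genes tested, 18.0%, 23.2% and 16.1% fell over the FL, YS and BM transfers. The part of these markers in the differences between precursors and over transfer was not tested. In such bulk samples, fewer cells of a type and less RNA per cell cannot be told apart.

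The precursors differed from each other in many of these genes. In FL monocytes 12 of 29 were higher and 3 lower than in BM monocytes, where 10.6% of all genes tested were higher and 8.97% lower. In YS macrophages 9 were higher and 9 lower than in BM monocytes (background 24.1% and 18.1%), and 5 were higher and 13 lower than in FL monocytes (18.6% and 14.5%). Over transfer, 11 genes rose and 7 fell from BM monocytes to BM-derived macrophages (background 20.3% higher and 16.1% lower). From FL monocytes to FL-derived macrophages 7 rose and 12 fell (20.4% and 18.0%), and from YS macrophages to YS-derived macrophages 11 rose and 12 fell (19.6% and 23.2%). Calls are from limma at a Benjamini-Hochberg adjusted p under 0.05. The median change of the 29 genes was 0.35 log2 from BM to FL monocytes, where that of all genes was -0.004. It was -0.31 over the transfer of FL monocytes, where that of all genes was -0.016. Both medians use the FL monocytes, with opposite sign, and are not independent of each other. Of the 111 calls in these 6 comparisons, 94 held whichever single array was left out. FL monocytes enter 3 of these comparisons and the other precursors likewise, so the calls are not independent of each other. Slc2a3 and Slc16a1 passed the filter only through YS macrophages, their highest group (0 and 3 arrays above the table median in all other groups), so they had to be higher there, and their values are given below as a description.

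**Figure D1:**
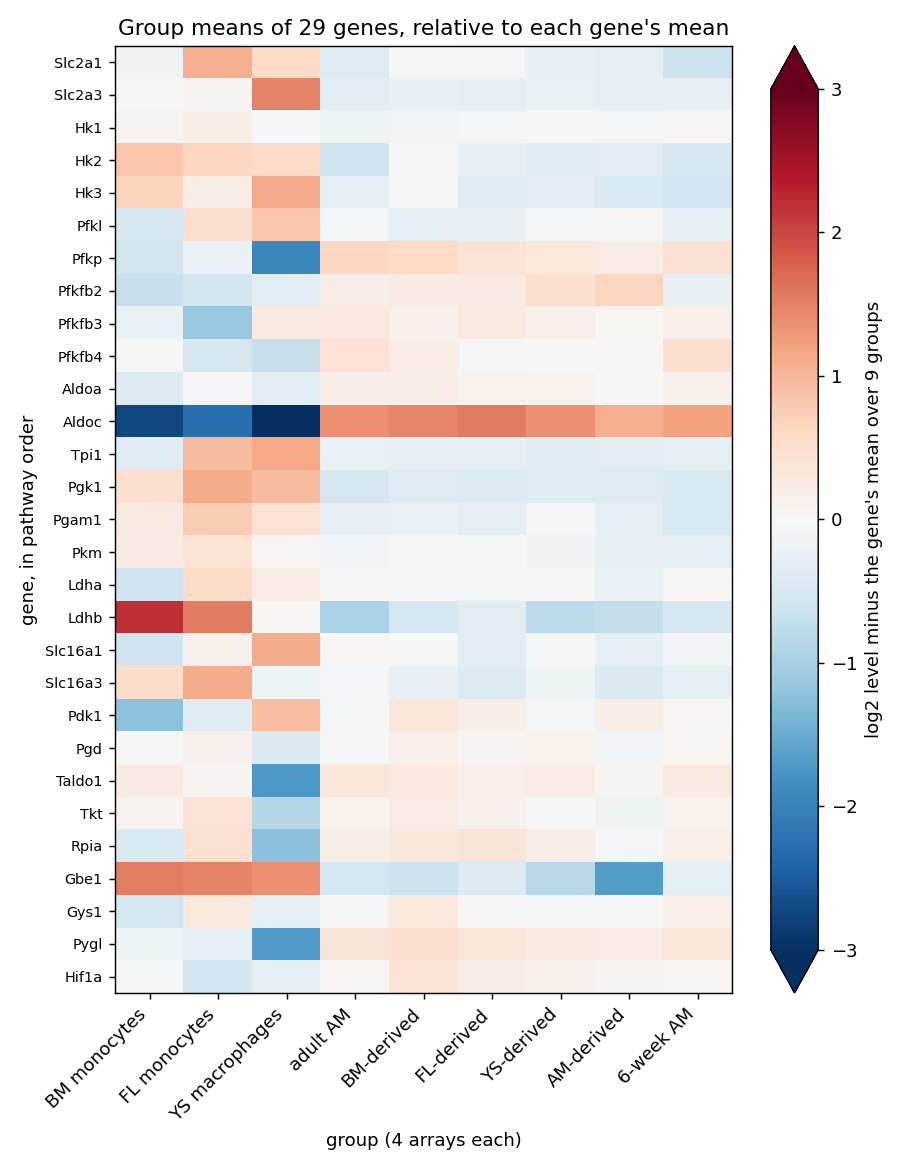
Mean log2 level of the 29 tested genes (rows, in pathway order) in 9 groups of 4 arrays (columns), relative to each gene's mean over the groups; red is higher and blue lower. The 3 precursor columns on the left differ from each other, and in the 6 AM columns the range of a gene's means has a median of 0.37 log2, with Gbe1 lowest in AM-derived macrophages.

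The group means lay closer together after transfer. Between the lowest and the highest of the 3 precursor means, the median distance of the 29 genes was 1.15 log2, against 0.445 over all genes tested. Between BM-, FL- and YS-derived macrophages it was 0.24, against 0.19 over all genes. The distance was smaller among the derived groups for 27 of the 29 genes and for 81.3% of all genes. Aldoc, Pfkp, Pfkfb2, Pygl and Hif1a rose in all 3 transfers, and Hk2, Hk3, Pgk1, Pgam1, Ldhb and Gbe1 fell in all 3. The share of all genes called in the same direction in all 3 was not computed, so this list is a description. Ldha and Pdk1 were called in opposite directions in different transfers. So was Slc16a1, which passed the filter only through YS macrophages and was under the table median on both sides of the BM transfer. The 29 genes include Slc16a1 and Slc2a3, so the filter had a part in their distance between precursors.

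Glucose enters through facilitative transporters, of which GLUT1, encoded by Slc2a1, is the widely used form. Slc2a1 stood at log2 levels of 7.27, 7.44, 7.36 and 7.21 in BM monocytes, 8.60, 8.51, 8.55 and 8.46 in FL monocytes and 8.33, 7.78, 8.004 and 8.05 in YS macrophages. All fetal arrays were above all BM arrays. Slc2a1 was thus 2.31-fold higher in FL than in BM monocytes (log2 difference 1.21 ± 0.19 SE, n = 4 per group, adjusted p = 8.83e-06) and 1.65-fold higher in YS macrophages (adjusted p = 0.002). It fell by 1.14 over the transfer of FL monocytes and by 0.83 over that of YS macrophages, and after that of BM monocytes it differed by 0.13 (adjusted p = 0.625). The change from FL origin differed from that from BM origin by an interaction of -1.27 ± 0.26 (adjusted p = 0.00121). Slc2a3, which encodes the high-affinity transporter GLUT3, was above the table median in YS macrophages alone, with 6.23, 5.82, 5.18 and 6.03. Its group means elsewhere were 4.02 to 4.41. Its YS mean was at least 2.28-fold that of either monocyte and of YS-derived macrophages, taken against the table median.

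Tpi1 and Pgk1 were, like Slc2a1, higher in both fetal precursors than in BM monocytes. Tpi1 encodes triosephosphate isomerase, which interconverts both products of aldolase. Its levels were 8.11, 8.64, 8.85 and 8.89 in BM monocytes, 10.25, 9.88, 9.55 and 9.99 in FL monocytes and 10.26, 10.33, 9.83 and 10.13 in YS macrophages. No fetal array overlapped a BM array. Tpi1 was 2.45-fold higher in FL than in BM monocytes (1.30 ± 0.16, adjusted p = 1.63e-07) and 2.85-fold higher in YS macrophages (1.51 ± 0.16, adjusted p = 1.01e-09). It then fell by 1.24 from FL and by 1.51 from YS origin, while from BM origin it differed by 0.07 (adjusted p = 0.751), with interactions of -1.31 (adjusted p = 1.20e-04) and -1.58 (adjusted p = 8.80e-07) against BM origin. Pgk1, the phosphoglycerate kinase of the first ATP-forming step, measured 10.83, 10.75, 11.01 and 10.96 in BM monocytes, 11.54, 11.38, 11.54 and 11.59 in FL monocytes and 11.40, 11.32, 11.27 and 11.43 in YS macrophages. Its 6 AM group means all lay between 9.91 and 10.03. It fell from every origin, by 0.87 from BM, 1.52 from FL and 1.34 from YS (adjusted p = 3.65e-09, 4.88e-15 and 9.02e-14). Pgam1, the phosphoglycerate mutase, fell by 0.46, 1.05 and 0.45. Pkm, the pyruvate kinase of the last step, fell by 0.47 from FL origin (adjusted p = 0.00764) and differed by -0.22 from BM and -0.15 from YS origin, neither called.

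The upstream sequences of Slc2a1, Tpi1 and Pgk1, which were all higher in the fetal precursors, and of Aldoc, which had the largest change over transfer, are shown from RefSeq (GRCm38.p6). Each run holds the 250 bases before the annotated start, written 5′ to 3′ on the strand of the gene. Capitals mark the cores ACGTG and GCGTG of the hypoxia response element on either strand. Slc2a1 is at chr4:119108495-119108744 (plus strand), Tpi1 at chr6:124814159-124814408 (minus strand), Pgk1 at chrX:106186850-106187099 (plus strand) and the first of 2 annotated Aldoc starts at chr11:78322823-78323072 (plus strand).
Slc2a1: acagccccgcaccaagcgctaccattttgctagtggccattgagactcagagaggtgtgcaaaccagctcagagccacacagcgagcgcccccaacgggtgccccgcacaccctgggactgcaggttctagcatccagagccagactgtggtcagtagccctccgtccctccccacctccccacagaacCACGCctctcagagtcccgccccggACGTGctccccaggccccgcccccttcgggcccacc
Tpi1: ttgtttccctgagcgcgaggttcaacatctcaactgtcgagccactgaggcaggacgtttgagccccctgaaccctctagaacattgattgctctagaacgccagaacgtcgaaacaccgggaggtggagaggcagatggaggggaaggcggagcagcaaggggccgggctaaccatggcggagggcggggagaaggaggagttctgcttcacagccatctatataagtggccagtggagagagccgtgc
Pgk1: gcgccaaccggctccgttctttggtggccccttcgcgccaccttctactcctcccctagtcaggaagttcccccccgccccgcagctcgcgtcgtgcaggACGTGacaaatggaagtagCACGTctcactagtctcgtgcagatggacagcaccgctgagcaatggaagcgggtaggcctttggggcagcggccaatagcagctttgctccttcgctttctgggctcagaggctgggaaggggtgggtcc
Aldoc: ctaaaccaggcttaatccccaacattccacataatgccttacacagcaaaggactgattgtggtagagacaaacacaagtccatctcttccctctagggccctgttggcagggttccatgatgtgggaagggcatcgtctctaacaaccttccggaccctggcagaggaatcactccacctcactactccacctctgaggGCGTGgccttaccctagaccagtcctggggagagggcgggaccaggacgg
Slc2a1 and Pgk1 hold 2 cores each in these stretches, Aldoc holds 1 and Tpi1 holds 0. Among 32851 windows of 300 bases around starts of all genes (250 before, 50 after), 43.8% hold at least 1 of both cores, ACGTG being in 19.6% and GCGTG in 32.4%. Of 37 listed genes 36 had a window, and 40 of their 55 windows (72.7%) hold a core. The E-box CACGTG, which contains ACGTG, is in 7.2% of all windows and in 6 of the 55 (10.9%). Base composition was not matched, and a match is a stretch of letters and not a known binding site.

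**Figure D2:**
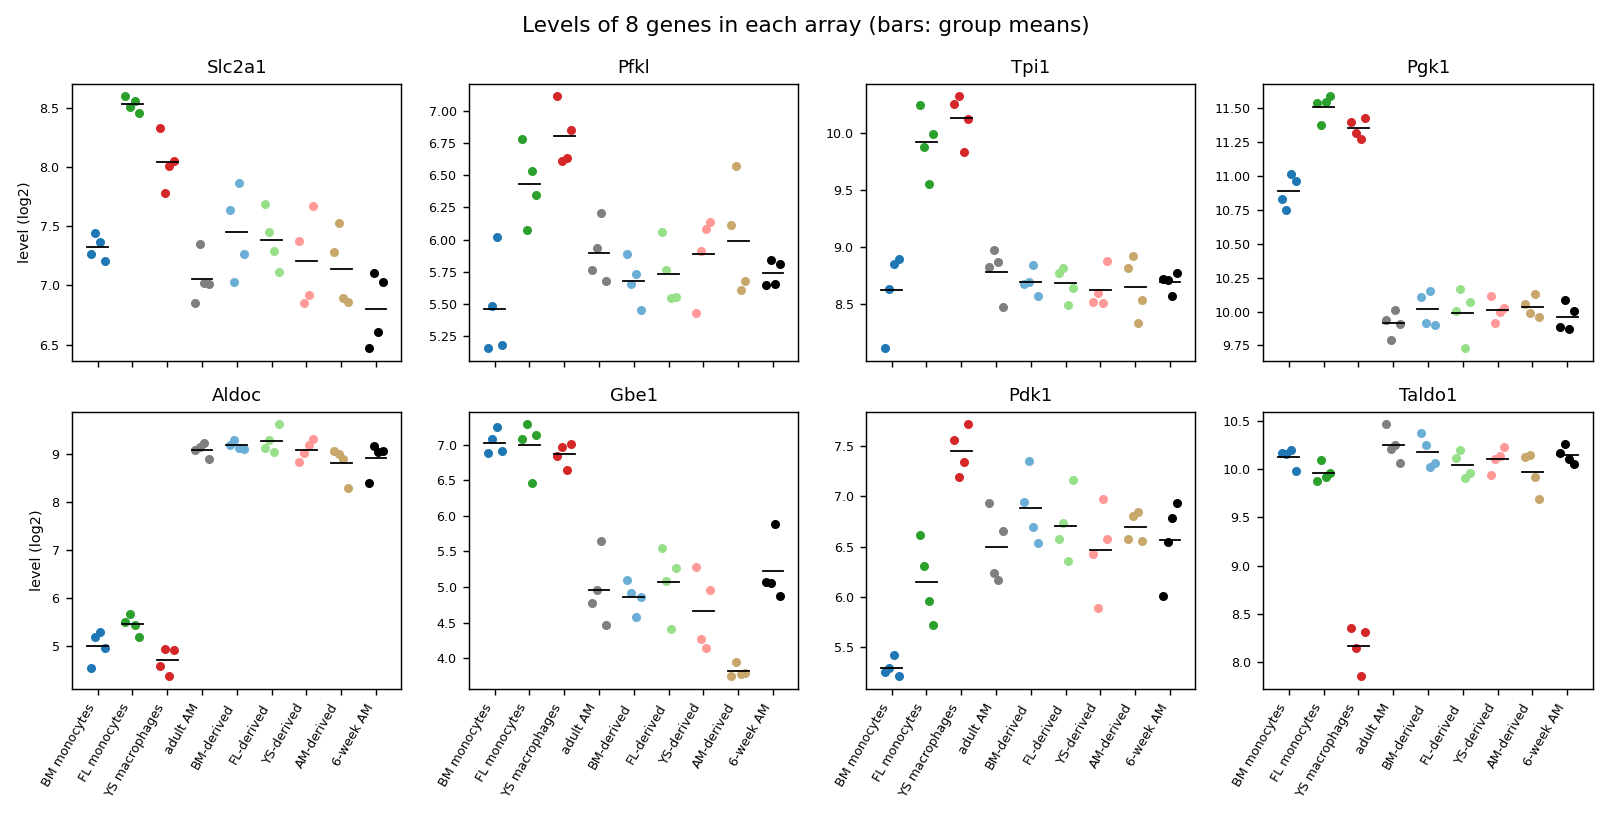
Log2 level of 8 genes in each of the 36 arrays (points) with the mean of each group of 4 (bars); the vertical axes do not start at 0 and differ between panels. Slc2a1, Pfkl, Tpi1 and Pgk1 have their highest means in FL monocytes and YS macrophages, Aldoc and Gbe1 separate all precursors from all AM groups, and Taldo1 is low in YS macrophages.

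Aldolase splits fructose-1,6-bisphosphate, and its isoform C, known from brain, showed the largest change of all members. Aldoc measured 4.55, 5.18, 5.30 and 4.95 in BM monocytes, 5.51, 5.66, 5.45 and 5.18 in FL monocytes and 4.58, 4.93, 4.36 and 4.92 in YS macrophages. In BM-derived macrophages it measured 9.19, 9.30, 9.13 and 9.10, in FL-derived 9.12, 9.29, 9.05 and 9.62, and in YS-derived 8.84, 9.02, 9.20 and 9.31. Native AM aged 6 weeks held 8.41, 9.18, 9.05 and 9.06 and adult AM 8.90 to 9.24. No precursor array reached an AM array. Aldoc rose 18.2-fold from BM monocytes (4.19 ± 0.18, adjusted p = 1.29e-19), 14.1-fold from FL monocytes (3.82 ± 0.18, adjusted p = 1.85e-18) and 21.0-fold from YS macrophages (4.39 ± 0.18, adjusted p = 2.38e-20). These folds are against dim precursor levels. Aldoa, the common isoform, rose by 0.62 from BM and 0.44 from YS origin and differed by 0.10 from FL origin (adjusted p = 0.428).

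Hexokinases trap glucose as glucose-6-phosphate. Hk2, the inducible isoform, fell by 0.84 from BM, 0.84 from FL and 0.93 from YS origin (adjusted p = 0.0121, 0.0106 and 0.00433). Without BM monocyte replicate 2, at 8.02 the highest array, the fall from BM was 0.53 (adjusted p = 0.102), and without BM-derived replicate 4 it was 0.71 (adjusted p = 0.0531). Hk3, an isoform of myeloid cells, was highest in YS macrophages (7.05, 7.46, 7.32 and 7.31) and fell by 0.69, 0.57 and 1.47 from BM, FL and YS. Its fall from YS was larger than from BM (interaction -0.79, adjusted p = 0.0089). The probe set that represents Hk1 shares its only accession with 16 probe sets naming Rpl17, a ribosomal protein gene, and correlated with them over 36 arrays (r from 0.562 to 0.733, which is across arrays of all groups). It was flat, at 11.1 to 11.4, and may not measure Hk1. A second Hk1 probe set, annotated with 8 accessions, had means of 5.29 in BM monocytes, 5.28 in FL monocytes, 4.56 in YS macrophages and 4.45 to 4.74 in AM. On that probe set Hk1 fell by 0.61 from BM and by 0.61 from FL origin (adjusted p = 0.00537 and 0.00453), close to the table median throughout.

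Phosphofructokinase commits sugar to glycolysis. Of its subunits, 2 were called in opposite directions between YS macrophages and BM monocytes and over the FL and YS transfers. Pfkl, the liver-type subunit, measured 5.16, 5.49, 6.02 and 5.19 in BM monocytes, 6.78, 6.07, 6.53 and 6.35 in FL monocytes and 7.11, 6.61, 6.63 and 6.85 in YS macrophages. Pfkp, the platelet-type subunit, measured 6.92, 7.34, 7.38 and 7.22 in BM monocytes, 7.80, 7.35, 7.45 and 7.81 in FL monocytes and 6.07, 5.79, 5.49 and 6.00 in YS macrophages. YS macrophages thus had the most Pfkl and the least Pfkp of all groups. Against BM monocytes, Pfkl was 2.53-fold higher (adjusted p = 1.11e-06) and Pfkp 2.60-fold lower (adjusted p = 3.00e-09). After transfer Pfkp stood at group means of 8.10 to 8.37, having risen 4.78-fold from YS (2.26 ± 0.15, adjusted p = 1.54e-14), 2.23-fold from BM and 1.49-fold from FL. Pfkl fell by 0.91 from YS and 0.70 from FL, and from BM origin it differed by 0.22 (adjusted p = 0.408). The rise of Pfkp from YS exceeded that from FL by 1.68 (adjusted p = 1.48e-07). Pfkm, the muscle-type subunit, was dim in every group, at means of 4.12 to 4.44.

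The Pfkfb genes encode bifunctional enzymes that make and remove fructose-2,6-bisphosphate, an activator of phosphofructokinase. Pfkfb3, an isoform with strong kinase activity, was lowest in FL monocytes, at 5.51, 5.50, 4.32 and 5.22, against 5.76 to 6.38 in BM monocytes and 6.18 to 6.77 in YS macrophages. It rose 2.66-fold in FL-derived macrophages (1.41 ± 0.19, adjusted p = 2.10e-07) and the difference from BM origin was 1.07 (adjusted p = 0.00777). Pfkfb2 rose by 0.93, 0.79 and 0.83 from BM, FL and YS. Pfkfb4 rose by 0.70 from YS macrophages (adjusted p = 0.0089), with overlapping groups. Fbp1, which works against phosphofructokinase in glucose synthesis, was above the table median in 1 array of 36, FL-derived replicate 2. FL-derived arrays held 3.53, 6.22, 3.45 and 4.33, while all other group means were 2.85 to 3.21.

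Lactate dehydrogenase is a tetramer of A and B subunits, the A form known from cells that make lactate and the B form from those that use it. Ldhb measured 7.55, 5.98, 7.63 and 6.98 in BM monocytes, 5.66, 6.90, 7.20 and 5.92 in FL monocytes and 4.92, 4.79, 5.05 and 4.86 in YS macrophages. Both monocyte groups were spread over more than 1 log2 unit. The AM group means of Ldhb were 3.91 to 4.52, under the table median. Ldhb fell at least 5.32-fold from BM monocytes (-2.71 ± 0.30, adjusted p = 4.93e-09) and at least 3.47-fold from FL monocytes, and from YS macrophages at least 1.22-fold (adjusted p = 0.0225; 0.0532 without YS macrophage replicate 3 and 0.0527 without YS-derived replicate 1). Ldha measured 9.31, 9.10, 9.22 and 9.17 in BM monocytes, 10.46, 10.34, 10.27 and 10.34 in FL monocytes and 10.04, 10.00, 9.99 and 10.09 in YS macrophages. The groups did not overlap. Ldha rose by 0.62 from BM origin and fell by 0.59 from FL origin (adjusted p = 2.01e-05 and 3.34e-05), with an interaction of -1.21 (adjusted p = 1.17e-06). The 6 AM means lay between 9.60 and 9.83.

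Lactate leaves the cell mainly through MCT4, encoded by Slc16a3, while MCT1, encoded by Slc16a1, carries it either way. Slc16a3 measured 7.79 to 8.11 in BM monocytes, 8.62, 8.41, 8.43 and 8.44 in FL monocytes and 7.17, 7.22, 7.24 and 7.24 in YS macrophages. It fell by 0.77 from BM and 1.52 from FL, and from YS origin it differed by 0.01 (adjusted p = 0.948). The difference between the FL and YS changes was 1.53 (adjusted p = 1.67e-09). Slc16a1 was above the table median on average in YS macrophages alone (5.95, 5.03, 4.86 and 5.74), where its mean was at least 1.71-fold that of either monocyte and of YS-derived macrophages. Pdk1 is a kinase that inhibits pyruvate dehydrogenase, the enzyme that turns pyruvate into acetyl-CoA in mitochondria. It measured 5.26, 5.29, 5.42 and 5.21 in BM monocytes, 6.62, 6.30, 5.96 and 5.72 in FL monocytes and 7.56, 7.19, 7.34 and 7.72 in YS macrophages, and no group overlapped another. From these 3 levels Pdk1 moved to means of 6.88, 6.71 and 6.47 in the derived groups, rising 3.01-fold from BM (adjusted p = 4.55e-07) and falling by 0.99 from YS (adjusted p = 4.47e-04). The interaction between the YS and BM changes was -2.57 (adjusted p = 5.84e-08). The rise from FL, 0.56 (adjusted p = 0.0463), lost its call without FL monocyte replicates 3 or 4 or FL-derived replicates 1, 2 or 4 (adjusted p = 0.0528 to 0.188). It was also lost with no filter on dim probe sets (adjusted p = 0.0667), renewed quantile normalization (0.068) or only the groups compared in the fit (0.0737).

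**Figure D3:**
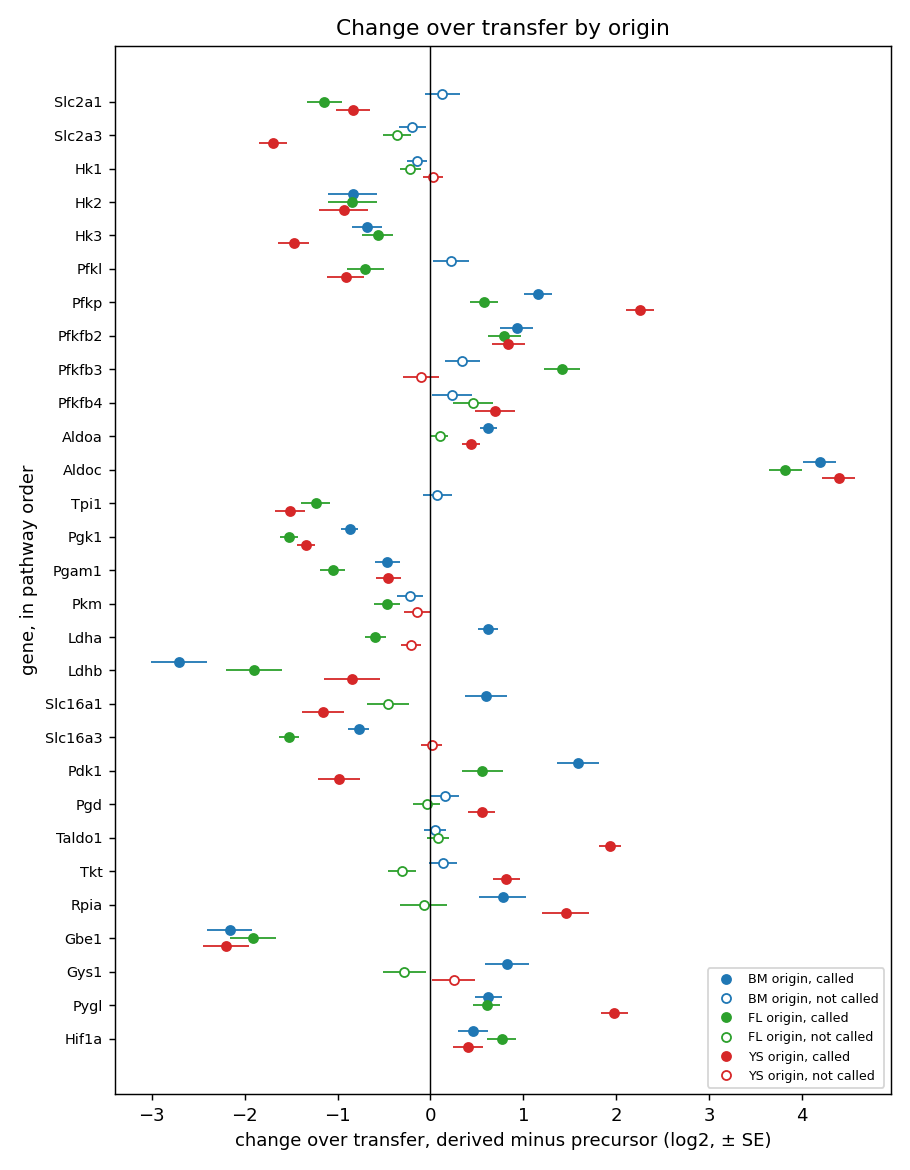
Log2 change over transfer (horizontal axis, derived minus precursor, ± SE) of the 29 tested genes for BM, FL and YS origin, 4 arrays per group; filled points were called by limma at an adjusted p under 0.05. Aldoc lies farthest right for each origin and Gbe1 on the left for each, while Pdk1 and Ldha lie on different sides of 0 by origin.

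All 4 tested pentose phosphate members (Pgd of the oxidative arm, Taldo1, Tkt and Rpia of the non-oxidative arm) were lower in YS macrophages than in either monocyte, and all 4 rose in YS-derived macrophages. Taldo1, transaldolase, measured 8.36, 8.14, 7.85 and 8.31 in YS macrophages and between 9.69 and 10.46 in all other arrays. It was 3.89-fold lower than in BM monocytes (-1.96 ± 0.12, adjusted p = 8.75e-16) and rose 3.82-fold over transfer (1.93 ± 0.12, adjusted p = 1.08e-15), against 0.05 from BM and 0.08 from FL origin (interactions 1.88 and 1.85, adjusted p = 3.70e-11 and 6.59e-11). The other genes of the pathway moved both ways: of 7 tested, 1 rose (Rpe, by 0.38) and 3 fell over YS transfer, with 19.6% of all genes higher and 23.2% lower. Prps2, which makes the ribose donor of nucleotide synthesis, had means of 9.01 in YS macrophages against 7.44 and 7.47 in BM and FL monocytes and fell by 1.51 (adjusted p = 2.98e-06), H6pd fell by 0.71 and Rbks, ribokinase, by 0.89. Rpia, which makes ribose-5-phosphate, measured 5.49, 4.83, 5.76 and 5.63 in YS macrophages and 7.50, 7.42, 6.33 and 7.32 in FL monocytes. It rose 2.74-fold in YS-derived macrophages (adjusted p = 1.28e-05). Tkt, transketolase, rose 1.76-fold and Pgd 1.46-fold (adjusted p = 2.94e-05 and 0.00257). From BM origin Rpia alone of the 4 was called, rising by 0.78 (0.62 with adjusted p = 0.0696 without BM monocyte replicate 2), and from FL origin 0 of 4 (limma). Pgd was lower in YS macrophages than in BM monocytes by -0.42, and not called without BM monocyte replicate 3 or YS macrophage replicate 3 (adjusted p = 0.0512 and 0.0742) or with arrays centred on a common median (0.0925). For Rpia that difference, -0.80, was -0.60 without YS macrophage replicate 2 (adjusted p = 0.0647).

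Of the 3 tested glycogen genes, Pygl rose and Gbe1 fell in all 3 transfers. Pygl, the liver-type phosphorylase that releases glucose-1-phosphate, measured 7.67, 7.80, 7.64 and 7.93 in YS macrophages, 9.27 to 9.39 in BM and 9.03 to 9.49 in FL monocytes. It rose 3.94-fold from YS (1.98 ± 0.14, adjusted p = 1.29e-13), 1.54-fold from BM and 1.52-fold from FL. The YS rise exceeded the BM rise by 1.36 (adjusted p = 2.58e-06). Gbe1, the branching enzyme, measured 6.88, 7.07, 7.25 and 6.90 in BM monocytes, 7.08, 7.28, 6.46 and 7.13 in FL monocytes and 6.84, 6.96, 6.64 and 7.004 in YS macrophages. It fell 4.48-fold from BM (-2.16 ± 0.25, adjusted p = 7.95e-09), 3.76-fold from FL and 4.59-fold from YS, to means of 4.66 to 5.08 near the table median. Gys1, the glycogen synthase, rose by 0.82 from BM origin (adjusted p = 0.00502) and differed by -0.28 from FL and 0.25 from YS, neither called. Hif1a, the oxygen-regulated subunit of the hypoxia-inducible factor, whose targets include many glycolytic genes, rose by 0.46, 0.77 and 0.40 from BM, FL and YS (adjusted p = 0.0211, 1.59e-04 and 0.0377). Its message does not show its protein, which is controlled by degradation. The BM call was lost without BM monocyte replicates 3 or 4 or BM-derived replicate 1 (adjusted p = 0.0688 to 0.0801), and the YS call without YS macrophage replicates 2, 3 or 4 or YS-derived replicates 1, 2 or 4 (0.0659 to 0.109) or with arrays centred on a common median (0.0563).

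Isoforms of 1 step were compared through the difference between their changes, which removes any shift shared by an array. Of 13 listed pairs, 10 had both genes tested, over 7 comparisons. In 9 cases 1 isoform was called higher and the other lower. These were Pfkl and Pfkp between YS macrophages and BM monocytes and in the FL and YS transfers, Ldha and Ldhb between YS macrophages and BM monocytes and in the BM transfer, and Slc16a1 and Slc16a3 between YS macrophages and each monocyte and in the BM transfer. The last was Slc2a1 and Slc2a3 between YS macrophages and FL monocytes. Slc2a3 and Slc16a1 passed the filter only through YS macrophages, so they had to be higher there. The cases that set YS macrophages against monocytes with either of these genes are a description and not a test. The change of Pfkl minus that of Pfkp was 2.72 from BM monocytes to YS macrophages, -1.27 over FL transfer and -3.17 over YS transfer. The change of Ldha minus that of Ldhb was at least 3.03 over BM transfer, with Ldhb after transfer taken at the table median. Groups did not overlap in any of the 9, so each gave 0.0286 in the exact two-sided permutation test, the smallest p that 4 against 4 arrays can give. Of the 70 tests 29 gave this p, which makes it 0.069 after adjustment, and 0 of 70 passed. These 29 include pairs of Hk1, whose main probe set may not measure it, and of Slc2a3 and Slc16a1. A limma fit of the same differences called 44 of 70, such pairs included, with adjusted p = 2.44e-17 for Pfkl against Pfkp over YS transfer. The Slc2a1 call among these (-0.49 between YS macrophages and FL monocytes, adjusted p = 0.0418) was lost without any 1 FL monocyte array or YS macrophage replicates 2, 3 or 4 (adjusted p = 0.0559 to 0.133), with no filter on dim probe sets (0.0552) and with arrays centred on a common median (0.0835). Slc16a1 was under the table median in both groups of the BM transfer, and its call there (0.60, adjusted p = 0.0351) was lost without BM monocyte replicates 3 or 4 or BM-derived replicates 3 or 4 (adjusted p = 0.068 to 0.148).

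**Figure D4:**
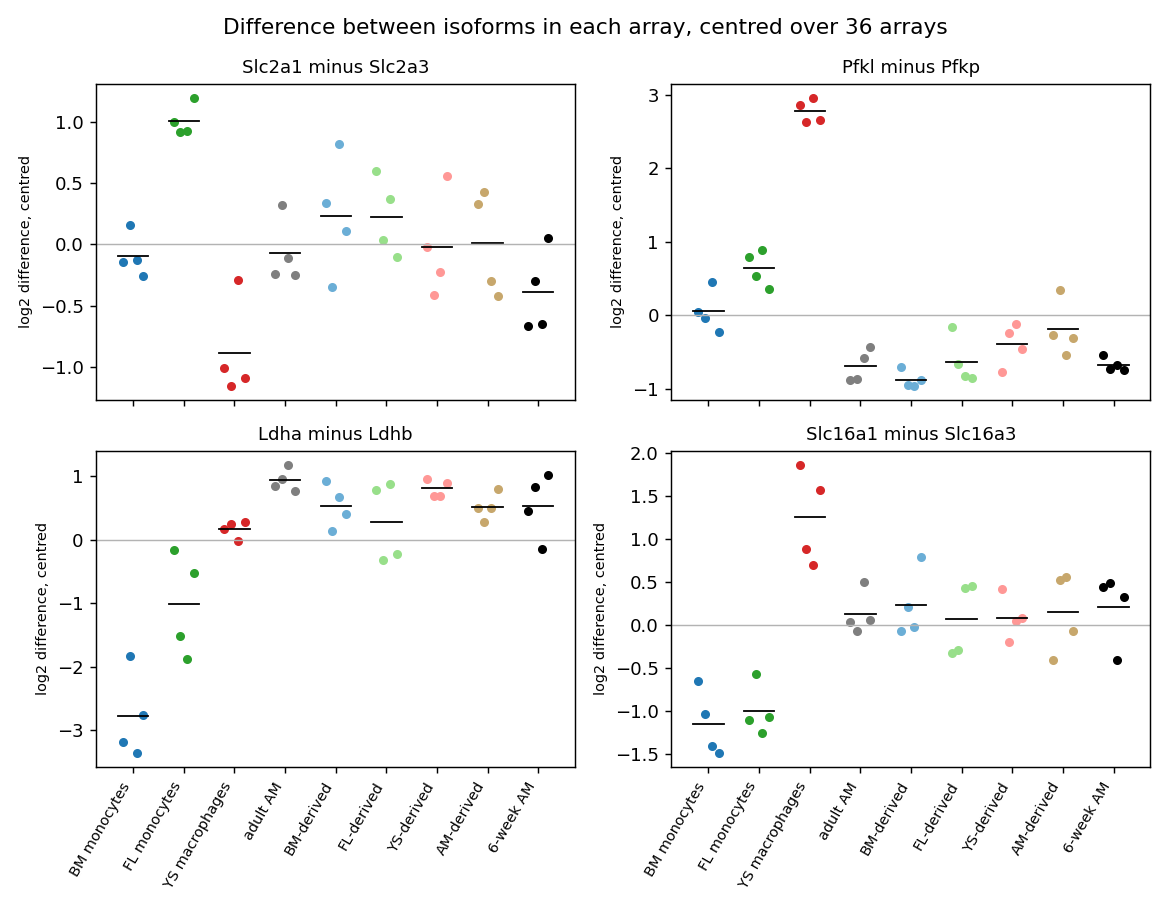
Difference between the log2 levels of 2 isoforms in each of the 36 arrays (points), centred on its mean over all arrays, with group means (bars); only differences between groups can be read, not which isoform is more abundant. Pfkl minus Pfkp is highest in YS macrophages (2.63 to 2.96), and Ldha minus Ldhb has its lowest mean in BM monocytes (-3.36 to -1.83).

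Against native AM aged 6 weeks, few members were called, as were few of all genes. In BM-derived and FL-derived macrophages 0 of 29 were called (limma; 5 and 3 at an unadjusted p under 0.05), where 1.31% and 1.05% of all genes were called. These and the other backgrounds are shares at the adjusted threshold. The share of all genes at an unadjusted p under 0.05 was not computed, so counts at that threshold have no background beside them. In YS-derived macrophages Pfkfb2 alone was called (background 1.72%), at 5.89, 6.22, 6.01 and 5.92 against 5.14, 5.13, 5.75 and 5.16 in native cells. The groups did not overlap, and Pfkfb2 was higher by 0.71 ± 0.18 (adjusted p = 0.0211). That call was lost without YS-derived replicates 2 or 3 or native replicates 1, 2 or 4 (adjusted p = 0.0543 to 0.0999) and with only the groups compared in the fit (0.0526). In AM-derived macrophages 2 of 29 were called (background 1.07%). Pfkfb2 was higher by 0.86 ± 0.18 (adjusted p = 0.00563), at 6.31, 6.03, 5.96 and 6.34. Gbe1 was lower by -1.41 ± 0.25 (adjusted p = 9.21e-04). Its arrays held 3.75, 3.94, 3.79 and 3.80, all under the table median, against 5.07, 5.07, 5.89 and 4.87 in native cells, so it was at least 1.52-fold lower. The corresponding values of Pfkfb2 were 0.47 in BM-derived and 0.47 in FL-derived macrophages (adjusted p = 0.338 and 0.384). These 4 comparisons share the native group, which had the lowest mean of Pfkfb2 among the 6 AM groups. Against the adult AM they came from, AM-derived macrophages differed in Pfkfb2 by 0.47 (limma adjusted p = 0.358), which was not called.

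Gbe1 was also the 1 member called between AM-derived macrophages and the adult AM they came from (background 0.702%), lower by -1.14 ± 0.25 (adjusted p = 0.0129). Adult AM held 4.78, 4.96, 5.64 and 4.46, and no array overlapped. The fold was at least 1.26, since the AM-derived mean lay under the table median. Without adult AM replicate 3 the difference was -0.91 (adjusted p = 0.1), and with only the groups compared in the fit the adjusted p was 0.0628. Adult and native 6-week AM had 0 of 29 called (background 0.0163%; limma, 1, Pfkfb2, at an unadjusted p under 0.05). Between derived groups, 0 of 29 were called for FL against BM origin (background 0.417%), YS against BM (0.833%) and YS against FL (0.270%), with 1, 0 and 1 at an unadjusted p under 0.05 in limma. No share of all genes at the unadjusted threshold was computed here either. The change over transfer differed between origins for 12 of 29 genes between FL and BM (background 9.94%), 15 between YS and BM (30.6%) and 12 between YS and FL (22.9%). Each such difference equals the difference between derived groups minus that between their precursors, so these calls are not independent of the precursor calls. For Tpi1 the FL minus BM difference was 1.30 between precursors and -0.014 between derived groups, and the interaction was -1.31. The YS against BM count includes Slc2a3 and Slc16a1, and the YS against FL count includes Slc2a3. Both genes passed the filter only through YS macrophages.

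**Figure D5:**
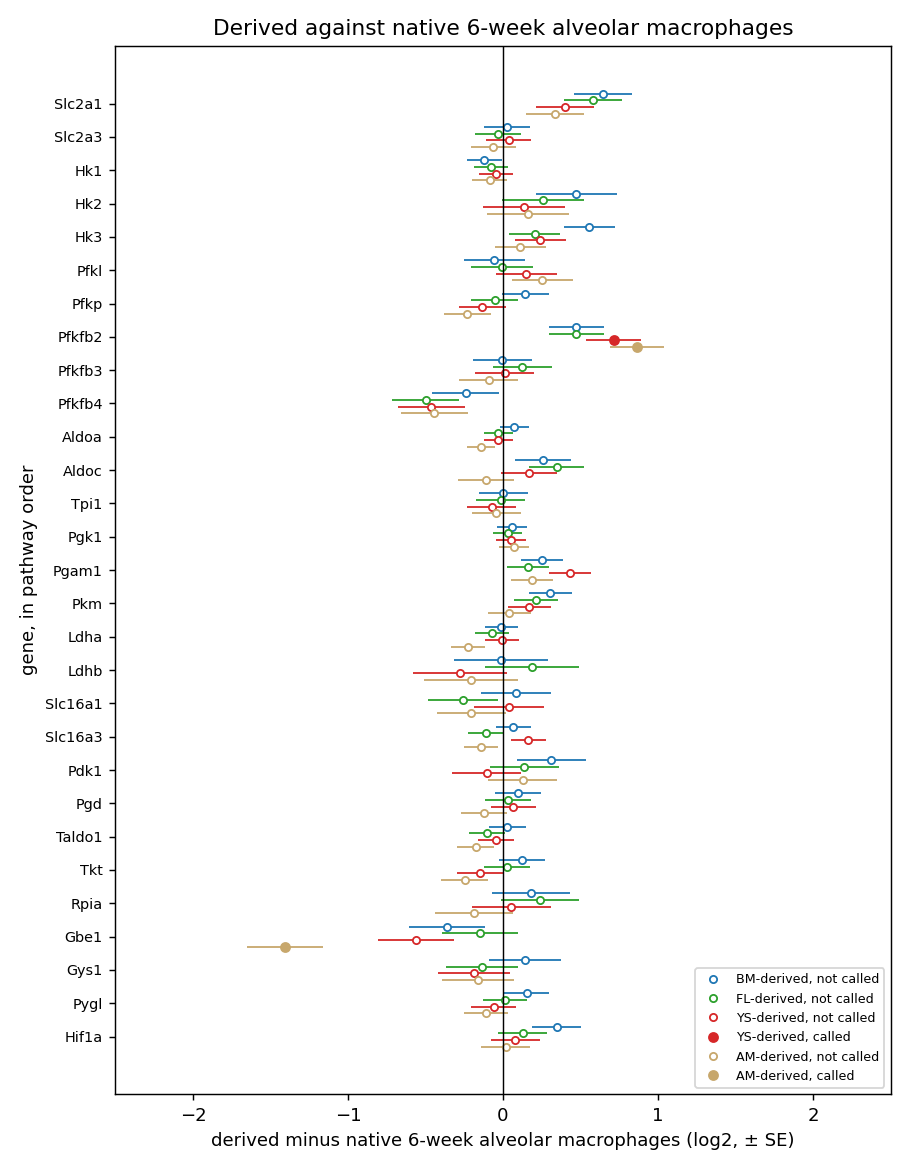
Log2 difference (horizontal axis, ± SE) of the 29 tested genes between each derived group and native AM aged 6 weeks, 4 arrays per group; filled points were called by limma. The called points are Pfkfb2 in YS- and AM-derived and Gbe1 in AM-derived macrophages.

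Other genes of these pathways were read from lists, beside shares of all genes of 20.3% higher and 16.1% lower over BM transfer, 20.4% and 18.0% over FL transfer and 19.6% and 23.2% over YS transfer. Of 12 tested genes of pyruvate dehydrogenase and mitochondrial pyruvate entry, 5 rose and 0 fell from BM origin, 5 rose and 2 fell from FL and 4 rose and 2 fell from YS. Pdk4, a kinase of pyruvate dehydrogenase known from fat-burning tissue, was under the table median in all precursors (means 3.42, 3.22 and 3.76). After transfer it was at least 5.27-fold, 3.61-fold and 8.59-fold higher for BM, FL and YS origin. Its means were 7.02, 6.48 and 7.73 there and 7.65 in AM-derived macrophages, against 5.67 in adult and 5.96 in native 6-week AM. Only AM groups had means above the table median, so the filter had a part in the rise of Pdk4 over transfer. Mpc1, a subunit of the mitochondrial pyruvate carrier, rose by 0.43, 0.82 and 1.98 on the log2 scale, and Pdk2 by 0.97, 1.91 and 1.11.

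Of 16 hypoxia response genes outside glycolysis, 5 rose and 5 fell from BM, 5 and 7 from FL and 3 and 6 from YS. For this list and those below, the shares of all genes were 20.3% higher and 16.1% lower from BM. They were 20.4% and 18.0% from FL and 19.6% and 23.2% from YS. Over FL transfer Epas1, the gene of HIF-2 alpha, rose at least 7.54-fold and Bnip3l by 0.88 log2. Ankrd37 fell by 2.57 log2 and Ndrg1 fell at least 2.6-fold. The mean of Epas1 was 7.538 in FL-derived macrophages, against 6.376 in adult and 6.115 in native 6-week AM. Of 18 other glycogen genes 6 rose and 1 fell from BM, 5 and 1 from FL and 5 and 3 from YS. Among those that rose from BM were Gaa, the lysosomal glucosidase (1.49 log2), and Epm2a, the glycogen phosphatase laforin (at least 1.28-fold). Epm2a had means above the table median in AM groups alone, so the filter had a part in its rise. Of the 7 other pentose phosphate genes 0 rose and 3 fell from BM (limma) and 0 rose and 2 fell from FL, where Rbks fell by 1.95 log2. Of 12 other sugar genes 2 rose and 3 fell from BM, 3 and 2 from FL and 1 and 3 from YS, Galm, an aldose epimerase, rising by 1.20 log2 and Khk, ketohexokinase, falling by 1.43 log2 from BM. Those that fell from YS include Slc2a5, whose mean was above the table median in YS macrophages alone (5.39, against 3.69 to 3.96 elsewhere). The filter thus had a part in the fall of Slc2a5. Of 11 other glycolysis and gluconeogenesis isoforms 3 rose (G6pc3, Tigar and Ldhd) and 2 fell from BM, 2 and 0 from FL and 4 and 1 from YS.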

How the data were processed

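The authors deposited log2 expression values, normalized with RMA per the submitters' processing notes, for 35556 probe sets on 36 arrays (array medians 4.544 to 4.732). Of these, 21789 named 1 gene, 1621 several and 12146 had no entry in the annotation, whose symbols can be old. Symbols were updated through Entrez identifiers for 21698. The probe set with the highest mean stood for each gene. Arrays give relative brightness only, and their number limits the precision; nothing in the labels states separate cultures or animals beyond the words biological replicate, and p-values measure the spread between these arrays.

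limma 3.58.1 in R 4.3.3 fitted 1 mean per group on all 36 arrays to the 12244 genes above the table median of 4.623 in at least 4 arrays, with Benjamini-Hochberg adjustment per comparison at 0.05. The fit was tested on simulated data. A fold is given as "at least" where 1 group mean lies under the table median and is then taken against that median. Isoform pairs used exact two-sided permutation tests over 4 against 4 arrays. Replicate numbers were checked for pairing by the correlation of same-numbered arrays and fell short of the criterion (every pair above 0.1) in each comparison. Alternatives covered the filter, centring, quantile normalization, mean of probe sets, prior, array weights, replicate block, groups fitted and leaving out each array. The second Hk1 probe set was added after seeing the data. Members and lists were chosen with earlier results of these data known. All members could be named. Per-array values were given for the 3 largest called rises and falls of a comparison whose groups did not overlap and for isoforms called in opposite directions; those of Hk3, Pfkfb3, Pygl, Fbp1 and Ldha, and the list genes named, were chosen after their values were seen where they fall outside that rule.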

Additional observations from a re-analysis of the deposited data

Results flagged for a closer look

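In 10 of 238 gene-group combinations (4.20%), 1 of 4 arrays stood apart by Dixon's criterion (the gap to the nearest array over the range of the group), which chance gives in about 1 in 20 groups. Hk2 was low at 4.787 in adult AM replicate 4 (others 5.933 to 6.006) and at 5.862 in BM-derived replicate 4 (others 6.339 to 6.411). Pfkp was high at 8.401 in YS-derived replicate 4 (7.960 to 8.015), and Pfkfb2 at 5.754 in native AM replicate 3 (5.131 to 5.156). Slc16a3 was high at 8.619 in FL monocyte replicate 1 (8.413 to 8.443) and at 7.126 in AM-derived replicate 1 (6.834 to 6.874). FL monocyte replicate 3 was low for Rpia, at 6.328 (7.317 to 7.501), and for Hif1a, at 6.861 (7.200 to 7.238). Gys1 was low at 5.075 in FL-derived replicate 3 (6.002 to 6.069), and Pygl high at 10.404 in BM-derived replicate 2 (9.764 to 9.822).

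The change over transfer differed between origins by limma's interaction test. An interaction equals the difference between derived groups minus that between their precursors, so it is not independent of the precursor comparisons. Between FL and BM origin the largest called differences were those of Tpi1 (-1.309), Slc2a1 (-1.270), Ldha (-1.209), Gys1 (-1.108) and Pfkfb3 (1.069). That of Gys1 (adjusted p = 0.0258) lost its call without BM monocyte replicate 2, FL monocyte replicates 1 or 4 or FL-derived replicate 3 (-1.064 to -0.870). Between YS and BM origin they were those of Pdk1 (-2.574), Taldo1 (1.885), Ldhb (1.863), Slc16a1 (-1.756, a gene that passed the filter only through YS macrophages) and Tpi1 (-1.585). Between YS and FL origin they were those of Taldo1 (1.851), Pfkp (1.684), Pdk1 (-1.543), Slc16a3 (1.535) and Rpia (1.529). Ldhb lay under the table median in BM-derived and YS-derived macrophages (means 4.324 and 4.058), so its falls are known only as bounds.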

How the results depend on the processing

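No called change tested under the alternatives turned its sign. Hk1, never called on its main probe set, did so on the second one in several comparisons (against native AM from -0.12 to 0.23 in BM-derived and from -0.05 to 0.29 in YS-derived macrophages). The number of members called moved by over 1.5 times, or on or off 0, in these cases. Without a filter on dim probe sets, 1 member (Fbp1) was called in FL-derived against native AM in place of 0. With array weights, 2 were called in BM-derived (Slc2a1 and Hk3) in place of 0 and 2 in YS-derived (Pgam1 beside Pfkfb2) in place of 1. With only the groups compared in the fit, 0 were called in AM-derived against adult AM and 0 in YS-derived against native AM, in place of 1 each. Leaving out 1 array gave 0 to 1 in AM-derived against adult AM, 0 to 1 in BM-derived and 0 to 1 in YS-derived against native AM. For the isoform pairs, those of Hk1 included, limma called 44 of 70, where the exact test called 0. Over the other comparisons, leaving out 1 array gave 14 to 16 members between FL and BM monocytes, 17 to 18 between YS macrophages and BM monocytes and 15 to 19 between YS macrophages and FL monocytes. Over transfer it gave 16 to 18 from BM, 18 to 20 from FL and 21 to 23 from YS origin. Differences between origins held for 8 to 12 members between FL and BM (12 with all arrays), 15 between YS and BM and 10 to 13 between YS and FL (12 with all arrays). Same-numbered arrays correlated at r from -0.138 to -0.034 between FL and BM monocytes, 0.065 to 0.159 between YS macrophages and FL monocytes, 0.028 to 0.127 over BM transfer (all 4 best with their own number, a hint from the data and not from the design) and -0.005 to 0.419 between AM-derived and adult AM. In no comparison were all pairs above 0.1, so the arrays were taken to share only a number. With the replicate number as a block, members called went from 19 to 18 over FL transfer (Pdk1 lost, adjusted p = 0.0588) and from 18 to 19 between YS macrophages and BM monocytes (Pfkfb3 gained, 0.0459). Between YS macrophages and FL monocytes the count stayed at 18, with Slc2a1 lost (0.0513) and Gys1 gained (0.0325). Genes near the table median, such as Slc16a1, Ldhb after transfer and Gbe1 in AM-derived macrophages, have only bounds on their folds.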
